A study of Homo sapiens with 12 samples.

Results

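H3K27ac regions at the ends of protein-coding genes were examined in RPMI 8226 cells, a long-established line derived from multiple myeloma, a cancer of plasma cells. The peaks of all 12 libraries on chromosomes 1 to 22 and X were merged into 103542 union regions, of which 43630 were overlapped by a peak in at least 6 libraries and are called consensus regions here. Of these, 11706 lay within 1 kb of either end of a RefSeq protein-coding gene span (hg38) and are called gene-end regions. The remaining consensus regions comprised 18293 inside genes and 13631 outside genes. The 4 groups, of 3 libraries each, were CEBPB knockout cells treated with 10 µM dexamethasone for 2 h, CEBPB knockout cells in DMSO, scramble control cells treated with 10 µM dexamethasone for 2 h, and scramble control cells in DMSO. The series title asks how loss of C/EBPβ, the transcription factor encoded by CEBPB, bears on the response of enhancers to this synthetic glucocorticoid. Clonality of the knockout is not stated in the labels, nor is the origin of a group's libraries in separate cultures. All p-values therefore refer to the spread among libraries, which may be technical. Each library had 41164 to 56421 peaks, and read depth is unknown because the peak lists give no counts.

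Acetylation of lysine 27 of histone H3 marks active promoters and enhancers. It is written mainly by the coactivators p300 and CBP, and at active genes it flanks the nucleosome-depleted transcription start site. CUT&RUN maps such a mark by tethering a nuclease to an antibody in permeabilised cells and sequencing the released DNA. The glucocorticoid receptor binds DNA mostly away from promoters, and C/EBPβ is a leucine zipper factor that recognises both promoters and enhancers. The quantity followed here is the covered length, the base pairs of a region that lie under peaks in a library. It is 0 where no peak was called, and it registers the extent of a peak rather than its height.

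Upstream sequences of 7 genes are shown because the results on the drug (CXCR4 and GABPB1), on peaks absent from knockout cells (EDIL3 and FGF5), on peaks absent from scramble cells (SOBP and SH2D1A) and on the targeted gene (CEBPB) turn on them. Each is the 250 bases before the RefSeq transcription start (GRCh38.p14, the hg38 assembly), 5′ to 3′ on the gene's strand, and lies wholly inside that gene's region. Capitals mark matches on either strand to the 8 motifs searched, which are described with the promoters below.
CXCR4 (chr2:136118150-136118399, minus strand): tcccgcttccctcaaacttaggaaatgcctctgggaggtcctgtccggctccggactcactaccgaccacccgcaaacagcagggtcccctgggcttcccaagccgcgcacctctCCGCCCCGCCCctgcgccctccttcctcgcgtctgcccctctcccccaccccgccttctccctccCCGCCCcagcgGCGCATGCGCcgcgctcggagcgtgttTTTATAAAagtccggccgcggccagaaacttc
GABPB1 (chr15:50355199-50355448, minus strand): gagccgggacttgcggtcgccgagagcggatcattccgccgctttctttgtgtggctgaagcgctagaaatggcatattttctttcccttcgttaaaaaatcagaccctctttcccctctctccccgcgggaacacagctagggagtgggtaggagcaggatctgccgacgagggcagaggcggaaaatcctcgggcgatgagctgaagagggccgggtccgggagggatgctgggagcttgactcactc
EDIL3 (chr5:84384881-84385130, minus strand): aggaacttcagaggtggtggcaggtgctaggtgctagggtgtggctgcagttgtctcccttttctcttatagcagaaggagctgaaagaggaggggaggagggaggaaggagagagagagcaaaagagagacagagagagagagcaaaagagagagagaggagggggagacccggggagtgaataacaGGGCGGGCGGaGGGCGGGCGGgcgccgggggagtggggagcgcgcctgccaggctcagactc
FGF5 (chr4:80266338-80266587, plus strand): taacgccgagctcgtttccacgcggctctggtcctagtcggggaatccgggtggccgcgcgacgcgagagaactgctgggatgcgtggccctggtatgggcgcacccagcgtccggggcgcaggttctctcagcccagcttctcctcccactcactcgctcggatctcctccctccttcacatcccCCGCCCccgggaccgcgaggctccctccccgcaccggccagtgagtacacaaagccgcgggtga
SOBP (chr6:107489867-107490116, plus strand): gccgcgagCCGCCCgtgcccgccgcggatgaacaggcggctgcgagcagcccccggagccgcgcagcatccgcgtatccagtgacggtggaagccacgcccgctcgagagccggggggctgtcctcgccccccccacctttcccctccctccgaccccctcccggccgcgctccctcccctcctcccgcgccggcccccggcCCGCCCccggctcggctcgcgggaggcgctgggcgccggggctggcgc
SH2D1A (chrX:124346313-124346562, plus strand): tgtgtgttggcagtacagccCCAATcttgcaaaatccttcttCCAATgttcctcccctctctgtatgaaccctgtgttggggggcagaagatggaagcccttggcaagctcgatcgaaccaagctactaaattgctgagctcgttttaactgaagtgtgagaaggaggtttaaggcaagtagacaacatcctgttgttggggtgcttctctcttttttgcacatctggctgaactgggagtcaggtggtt
CEBPB (chr20:50190333-50190582, plus strand): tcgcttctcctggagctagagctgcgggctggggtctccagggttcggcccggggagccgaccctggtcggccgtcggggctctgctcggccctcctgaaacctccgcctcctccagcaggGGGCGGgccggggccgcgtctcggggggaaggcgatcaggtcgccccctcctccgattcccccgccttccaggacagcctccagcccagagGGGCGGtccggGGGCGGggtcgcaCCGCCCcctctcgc
The CXCR4 sequence holds GC boxes, an NRF1 site and overlapping TATA boxes close to the start, and the CEBPB sequence holds 4 GC boxes. GABPB1 holds none of the motifs in these 250 bases. SOBP and SH2D1A, both regions with peaks in knockout cells alone, contrast in base composition, with 37 and 3 CpG dinucleotides in the window.

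Gene-end regions were the most recurrent of the 3 classes. A peak was present in all 12 libraries at 9743 of them (83.2%), against 44.9% of consensus regions inside genes and 49.7% of those outside genes. Only 448 (3.83%) had a peak in exactly 6 libraries, against 15.7% and 15.9%. At the edge of the definition, 355 regions near gene ends had a peak in exactly 5 libraries and were not counted. A gene end lay inside the region itself at 10306 (88.0%), and 603 regions were over 500 and up to 1000 bp from the nearest end. Of those 603, 45.8% had a peak in every library, close to the 51.5% of the 493 consensus regions just outside the limit, at over 1000 and up to 1500 bp.

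**Figure D1:**
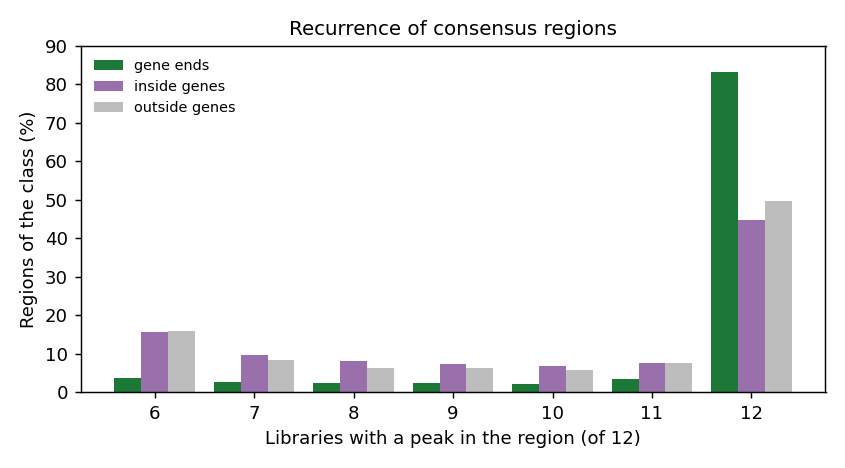
Share of the regions of each class (y axis, percent) by the number of libraries with a peak in the region (x axis, 6 to 12 of 12), for 11706 regions at gene ends, 18293 inside genes and 13631 outside genes. The bar for 12 libraries reaches 83.2% at gene ends and stays under 50% in the other classes.

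Within each library the class could be compared with the others on the share of regions with a peak, on peak width and on peak rank. On average 94.96 ± 1.27% of gene-end regions had a peak (SD over 12 libraries), against 81.9 ± 3.76% of regions inside genes and 83.3 ± 3.24% of those outside genes. Peaks at gene ends had a median width of 1363 ± 38.9 bp, against 1011 ± 40.3 bp inside genes and 937 ± 38.7 bp outside genes. Their fold enrichment, the authors' value for each peak over its background, had a median percentile of 75.9 ± 2.49 within its library, against 48.5 ± 3.18 inside genes and 59.0 ± 2.64 outside. All 6 differences had the same direction in 12 of 12 libraries (exact two-sided sign-flip permutation test, p = 0.000488 for each before and after Benjamini-Hochberg adjustment over 6 comparisons, the smallest value the test can give). The rule itself asked for a peak in at least 6 libraries in all 3 classes alike. It took presence from these same libraries, so the test of the share with a peak is not independent of the rule. A wider region also reaches within 1 kb of a gene end more readily. The p-values refer to libraries scored over 1 fixed set of regions.

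The class consisted mainly of promoters. Strand was known for 15812 of the 19974 protein-coding genes, and with it 7261 regions (62.0%) were near transcription starts only, 1279 (10.9%) near transcription ends only and 749 (6.40%) near both. The other 2417 touched at least 1 gene of unknown strand. Of genes of known strand, 9558 (60.4%) had a region at their start, 2516 (15.9%) at their end and 1997 at both. Starts of 2 or more genes shared 1175 of the regions (10.0%), the arrangement of divergent promoters among them.

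Start regions and end regions differed in every measure tested. A peak was present at 97.1 ± 0.814% of start-only regions and 82.8 ± 4.51% of end-only regions (SD, n = 12 libraries). Peaks covered a mean fraction of 0.775 ± 0.0216 of start-only regions and 0.458 ± 0.0424 of end-only regions. Median peak width was 1371 ± 40.9 bp at starts and 1104 ± 69.6 bp at ends. Each difference held in 12 of 12 libraries (exact two-sided sign-flip permutation test, p = 0.000488, unchanged by adjustment over 3 comparisons). Here too the share with a peak was counted on the peaks that defined the regions. The covered fraction was taken over the width of regions merged from those same peaks. A peak was present in all 12 libraries at 90.5% of start-only and 44.6% of end-only regions. The tests of the share with a peak and of the covered fraction are therefore not independent of the rule.

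Around starts the mark formed a narrow, asymmetric plateau. At the start itself peaks covered 53.6 ± 0.678% of the 15812 genes (SD, n = 12 libraries), and the highest value was 53.9%, at 100 bp downstream. Coverage was 45.2 ± 0.729% at 500 bp downstream and 29.5 ± 0.936% at 500 bp upstream, and at 1000 bp it was 20.8 ± 1.26% downstream and 10.2 ± 0.627% upstream. At 5000 bp it was 2.76% downstream and 2.77% upstream. Transcription ends lacked such a plateau. Peaks covered 4.15 ± 0.361% of genes at the end itself, and the highest value was 6.18%, at 1400 bp downstream.

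**Figure D2:**
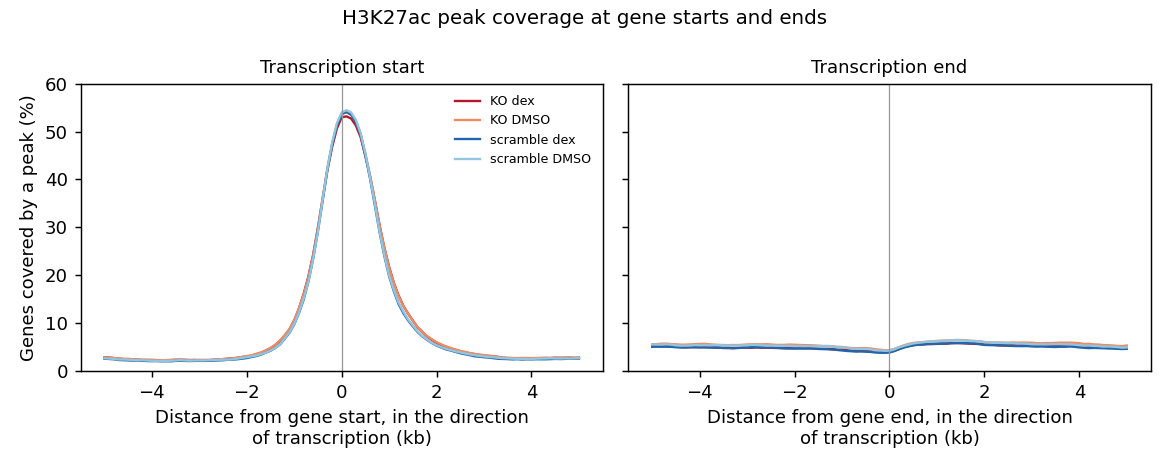
Percent of the 15812 genes of known strand covered by a peak (y axis, mean of 3 libraries per group) by distance in kb from the transcription start (left) and the transcription end (right), with 1 line per group. The 4 lines nearly coincide, reaching 53.6% at the start on average and staying under 7% around the end.

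The regions of highest rank were short and lay at transcription starts. By the median percentile of fold enrichment over the 12 libraries the first 5 were MAOA, NDUFS4, the region shared by PRH1, PRH1-TAS2R14 and SMIM10L1, EXD2 and ALG10B. MAOA encodes monoamine oxidase A (chrX:43654542-43655246), and its peak had a median fold of 13.7. NDUFS4 encodes a subunit of mitochondrial complex I (chr5:53560356-53561251), with a median fold of 12.3. All 5 regions had 1 peak in every library and were 705 to 1047 bp wide. The widest regions were of a different kind. The widest was at VOPP1 (13028 bp, chr7:55561583-55574610), followed by RHOH and N4BP2 (10966 bp), JCHAIN (9685 bp), UPB1 (9319 bp) and CSK (8765 bp). RHOH encodes a GTPase restricted to blood cells, JCHAIN the joining chain of polymeric immunoglobulins and CSK the kinase that restrains the Src family. JCHAIN was covered over 7171 ± 1798 bp in knockout libraries and 5998 ± 1431 bp in scramble libraries (SD, 6 libraries each). The groups overlapped, and the averaged difference of JCHAIN did not pass (log2 0.20 ± 0.177, SE, limma adjusted p = 0.531). The UPB1 region had peaks in only 7 of 12 libraries, and each of the widest 5 ranked low, with median percentiles of 1.69 to 20.1.

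Promoters that overlapped gene-end regions were rich in CpG and in the GC-dependent motifs. Of 15812 promoters (250 bases before to 50 bases after the start), 8879 overlapped a gene-end region, wholly or in part, and 6933 touched none. The 8879 are called promoters inside regions below, though some may lie there only in part. The median number of CpG dinucleotides was 27 in promoters inside regions and 9 in the others. The GC box GGGCGG, bound by Sp1, was present in 72.9% and 39.9% of them, against 58.5% of all promoters. The ETS site CCGGAAGT was present in 10.4% and 0.851%, against 6.20% of all. The NRF1 site was present in 2.66% and 0.606% (1.76% of all), and the cAMP response element TGACGTCA in 3.62% and 1.28% (2.59% of all). The TATA box TATAAA went the other way, with 4.98% inside regions and 15.6% in the others (9.64% of all). The CCAAT box differed little, at 37.7% and 34.6% (36.3% of all).

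Motifs of the factors under study were rare in these windows. The C/EBP pattern TTGCNNCAA was found in 1.34% of promoters inside regions and 2.08% of the others (1.66% of all). It was found in 3.21% of the 280 promoters inside regions lower in knockout cells and 0.601% of the 333 inside regions higher there. Both of these shares rest on few matches, and their difference was not tested. The palindromic glucocorticoid response element pattern was found in 0.146% of promoters inside regions and 0.375% of the others (0.247% of all). Both strands were searched for all 8 motifs. None contains another, though matches may overlap. These shares are descriptions of letters in the windows.

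Gene-end regions reached most genes of the pathways that plasma cells rely on. Over all protein-coding genes, 12324 of 19974 (61.7%) had such a region. All 34 housekeeping genes listed had one, as had 29 of 30 proteasome genes, which encode the target of bortezomib, and 24 of 25 genes of the unfolded protein response and secretory pathway. Of the 15 BCL2 family genes, which set the threshold for apoptosis, BCL2A1 was the exception. Of the C/EBP family 6 of 7 had a region, CEBPA being without one. Of 30 NF-κB and inflammatory genes 27 had one, and of 20 immediate early genes 18.

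Marker lists were read against the 61.7% of all genes with a region. Of 30 plasma cell and myeloma genes 25 (83.3%) had one, among them PRDM1, IRF4 and XBP1, the factors that direct plasma cell fate, and the surface antigens SDC1, TNFRSF17 and CD38. Those without one included SLAMF7, MEF2C, FGFR3 and GPRC5D. Of 15 mature B cell genes 10 (66.7%) had a region, CD79A, CD79B and BTK among them, and those without one included MS4A1, PAX5, CD22 and EBF1. Of 14 T cell genes 9 (64.3%) had one, including CD3E, CD5 and LCK but not CD3D, CD3G or CD2. Both shares were close to that of all genes. Myeloid markers had a region at 7 of 15 genes (46.7%) and stromal and epithelial markers at 5 of 11 (45.5%).

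Of 49 glucocorticoid-induced genes, 39 had a gene-end region and 36 had one in every library. ZBTB16, PER2, SGK1, PDK4, IL7R, ANXA1, CDKN1A, SLA, HSD11B1 and NR3C1, the gene of the glucocorticoid receptor, had none by this definition. The region of CEBPB itself (chr20:50190068-50193529) was acetylated throughout. It was covered over 2968, 3253 and 3270 bp in knockout libraries with dexamethasone and 3239, 3431 and 3330 bp in knockout libraries with DMSO, against 3238, 3154 and 3145 bp in scramble libraries with dexamethasone and 3105, 3181 and 3248 bp with DMSO. The groups overlapped, and the knockout under DMSO differed by log2 0.05 ± 0.0469 (SE, limma adjusted p = 0.702). A histone mark over the locus does not check the knockout, since the labels do not say what was deleted.

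As a class, gene-end regions did not shift detectably with drug or genotype. They held 31.9 ± 1.92% of the covered length in dexamethasone libraries and 29.7 ± 2.03% in DMSO libraries (SD, 6 libraries each, exact stratified permutation p = 0.12). A peak was present at 94.3 ± 1.21% of them with dexamethasone and 95.6 ± 0.979% with DMSO (exact permutation p = 0.065). The median width of their peaks was 1389 ± 16.2 bp in the knockout, against 1336 ± 37.0 bp in scramble cells (6 libraries each, exact permutation p = 0.025, adjusted p = 0.2 over 8 tests). Without scramble DMSO library 1 that last difference was 68.7 bp with an adjusted p of 0.04. None of the 8 two-sided tests passed after adjustment with all 12 libraries.

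Dexamethasone changed few gene-end regions. In knockout cells 16 regions passed when limma compared covered length over all 43630 consensus regions, of which 0.204% passed. Of the 16, 10 were higher and 6 lower, beside 0.142% higher and 0.0619% lower among all. In scramble cells 20 passed, where 0.303% of all consensus regions did. Of these 17 were higher and 3 lower, beside 0.225% higher and 0.0779% lower among all. Among gene-end regions those calls were 0.137% in knockout and 0.171% in scramble cells, below these backgrounds. Unadjusted limma p-values under 0.05 numbered 730 in knockout and 551 in scramble cells among the 11706 gene-end regions. Among all 43630 consensus regions they numbered 2990 and 2965. In the average over genotypes 28 regions passed, where 0.387% of all consensus regions did, and 20 were higher and 8 lower, beside 0.305% and 0.0825% among all. The count in scramble cells was 40 without scramble DMSO library 1, and that in knockout cells 27 without knockout dexamethasone library 2 and 35 without knockout DMSO library 1. In bulk chromatin, a mark in more cells and more of the mark per cell cannot be told apart.

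Passing in both genotypes were 5 regions, all longer with the drug. Among these 5, PDE6A with PPARGC1B entered the consensus through the drug libraries alone, so its direction was fixed in advance. The number passing in both genotypes among all consensus regions is not given here. CXCR4, a chemokine receptor that retains plasma cells in bone marrow and a known glucocorticoid-induced gene, had a region over its start and beyond (chr2:136116210-136119385). Peaks covered 2822, 3026 and 2808 bp of it in knockout cells with dexamethasone, against 1912, 1963 and 1879 bp in knockout cells with DMSO. In scramble cells the values were 3101, 3062 and 3085 bp with dexamethasone, against 2012, 1925 and 1853 bp with DMSO. All 6 drug libraries lay above all 6 DMSO libraries. The differences were log2 0.52 ± 0.0387 in knockout cells (adjusted p = 0.000522) and 0.58 ± 0.0387 in scramble cells (adjusted p = 0.00025, SE, limma), on the log2(bp + 500) scale.

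A region at the end of VAMP2, which encodes a vesicle fusion protein (chr17:8154251-8158921), behaved alike. The start of PER1, a circadian repressor and known glucocorticoid target, was 1847 bp away. The region was covered over 4607, 4633 and 4656 bp in knockout cells with dexamethasone, against 2963, 3136 and 2946 bp with DMSO. The values were 4623, 4629 and 4608 bp in scramble cells with dexamethasone, against 2898, 2804 and 2961 bp with DMSO. Again the drug and DMSO libraries did not overlap, and both differences passed (log2 0.57 in knockout and 0.62 in scramble cells, limma adjusted p = 0.000522 and 0.00025).

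Between PDE6A, a subunit of the rod phosphodiesterase, and PPARGC1B, a coactivator of nuclear receptors, both ending there, a peak appeared with the drug alone (chr5:149857231-149858098). It covered 868, 713 and 494 bp in knockout and 573, 612 and 596 bp in scramble cells with dexamethasone, and no peak was listed in any of the 6 DMSO libraries. With peaks in exactly 6 libraries, it entered the consensus through the drug libraries alone, so its calls are a description and no p is given. One other gene-end region, at the start of KIF3C, had peaks in all 6 drug libraries and no DMSO library. The reverse pattern occurred at 1 region, the start of LGALS3BP, a secreted glycoprotein. LGALS3BP is listed at 0 in all 6 drug libraries and was covered over 1692, 1342 and 1332 bp in knockout and 1564, 339 and 971 bp in scramble cells with DMSO. It entered the consensus through the DMSO libraries alone.

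GABPB1 encodes a subunit of the ETS-containing GA-binding protein, and its region covers the start (chr15:50352559-50355823). Peaks covered 3161, 3136 and 3160 bp in knockout cells with dexamethasone, against 1903, 1842 and 1854 bp with DMSO. Scramble cells had 3009, 2979 and 2344 bp with dexamethasone, against 2056, 1793 and 1808 bp with DMSO. The log2 differences were 0.66 in knockout and 0.48 in scramble cells (limma adjusted p = 0.00586 and 0.0237). The scramble call was lost without scramble dexamethasone library 1 or 2, or scramble DMSO library 2 or 3, and 1 scramble drug library was shorter than the other 2.

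SETD7, a lysine methyltransferase gene, was covered over 2623, 2579 and 2440 bp in knockout cells with dexamethasone, against 2106, 2164 and 2249 bp with DMSO. Scramble cells had 2586, 2426 and 2535 bp with dexamethasone, against 2194, 2134 and 2104 bp with DMSO. The average over genotypes was log2 0.22 ± 0.0236 (SE, limma adjusted p = 0.00355) and held without any 1 library. Its calls within a genotype were less firm. With each library left out in turn, that in knockout cells was lost except without scramble DMSO library 1, and that in scramble cells was lost except without knockout dexamethasone library 1 or 3 or knockout DMSO library 1.

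**Figure D3:**
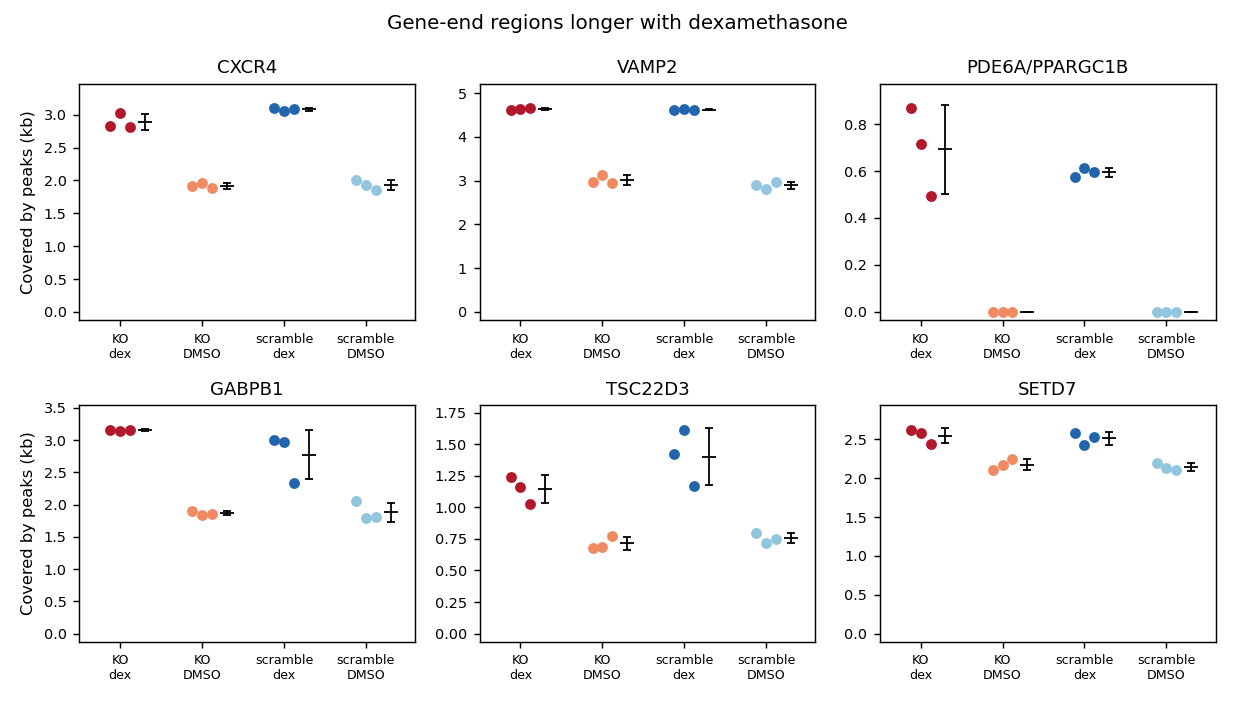
Base pairs of 6 gene-end regions covered by peaks (y axes, kb) in each library, with knockout dexamethasone, knockout DMSO, scramble dexamethasone and scramble DMSO libraries from left to right; the bar beside the points is the mean ± SD of 3 libraries. In each panel all 6 drug libraries lie above all 6 DMSO libraries.

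Few of the classical targets were called at their ends. Of the 45 gene-end regions of the glucocorticoid-induced list, CXCR4 alone (2.22%) passed in knockout cells, where 0.204% of all consensus regions did. CXCR4, TSC22D3 and ZFP36L2 (6.67%) passed in scramble cells, where 0.303% of all did. The list's median log2 difference was 0.03 in knockout and 0.06 in scramble cells, against 0.03 in both over all gene-end regions and 0.02 in both over all consensus regions. TSC22D3 encodes the glucocorticoid-induced leucine zipper GILZ, and the region lies at its transcription end (chrX:107710698-107712344). Its covered length was 1242, 1160 and 1025 bp in knockout cells with dexamethasone, against 678, 689 and 776 bp with DMSO. In scramble cells it was covered over 1421, 1613 and 1167 bp with dexamethasone, against 795, 718 and 752 bp with DMSO. Drug and DMSO libraries did not overlap in either genotype. The average passed without any 1 library (log2 0.56 ± 0.0699, SE, limma adjusted p = 0.00914). With each library left out in turn, the scramble call alone (adjusted p = 0.0302) was lost except without scramble dexamethasone library 3, knockout dexamethasone library 1 or knockout DMSO library 3. ZFP36L2, which encodes an RNA-binding decay factor, passed in scramble cells (log2 0.21, limma adjusted p = 0.0488). That call was lost in the same way except without scramble DMSO library 1 or knockout DMSO library 1.

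In most regions called for the drug or the interaction, 1 group stood apart from the rest. Counting calls of the drug in either genotype, on average or by interaction, 37 gene-end regions were called. In 28 of them the 3 libraries of 1 group lay above or below all 9 others, and in 12 all 6 drug libraries lay apart from all 6 DMSO libraries. The regions were chosen by these same calls, and the share of all gene-end regions with either pattern is not given here. These counts are therefore descriptions. The 12 include PDE6A with PPARGC1B and LGALS3BP, which entered the consensus through the drug or the DMSO libraries alone. The group apart was scramble DMSO, below the rest, in 11 regions and knockout dexamethasone, above the rest, in 6. ISCU, which encodes a scaffold for iron-sulfur cluster assembly, is an example of the first kind, at its transcription end (chr12:108566018-108569174). It was covered over 2997, 3072 and 2971 bp in knockout cells with dexamethasone, against 2912, 3000 and 2930 bp with DMSO. Scramble cells had 2145, 2910 and 2949 bp with dexamethasone, against 565, 502 and 520 bp with DMSO. The scramble difference was log2 1.66 (limma adjusted p = 0.000234). The ISCU region had 1 peak in every library, and its fold enrichment was among the lowest 2.58% of the library's peaks in all 12.

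The scramble DMSO group was likewise lowest at DCUN1D2 with SLC9D1, TTLL8 with MLC1, CYTH1 and FBXL16. DCUN1D2, which promotes cullin neddylation, differed by log2 0.77, TTLL8 with MLC1 by 0.96, CYTH1, which encodes the exchange factor cytohesin 1, by 0.40 and FBXL16, an F-box protein gene, by 2.02 (limma adjusted p = 0.000354, 0.000333, 0.00132 and 0.00592). These calls in scramble cells held without any 1 library. At FBXL16 the drug difference was not confined to scramble cells, since all drug libraries lay above all DMSO libraries. Its difference in knockout cells was log2 0.79 and did not pass (limma adjusted p = 0.443). The FBXL16 average over genotypes passed (log2 1.41, limma adjusted p = 0.00527).

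NCBP3, which encodes a nuclear cap-binding protein, showed the reverse at its start (chr17:3844075-3846650). Peaks covered 2377, 2412 and 2285 bp in knockout cells with dexamethasone and 2305, 2531 and 2463 bp with DMSO. In scramble cells it was covered over 1121, 1156 and 1052 bp with dexamethasone, against 2314, 2300 and 2313 bp with DMSO. Only the scramble drug libraries were short (log2 −0.77, limma adjusted p = 0.00025).

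Several further regions were called in knockout cells and not in scramble cells. BMPR2, the type II receptor of bone morphogenetic proteins, was covered over 3939, 3833 and 3796 bp with dexamethasone, against 2241, 2407 and 2098 bp with DMSO (log2 0.69, limma adjusted p = 0.00244). The scramble libraries of BMPR2 ranged from 2122 to 2412 bp with dexamethasone and from 2170 to 2398 bp with DMSO. ZNF689, GALR2 with SRP68 and IER5 were also longer in knockout cells with the drug (log2 0.87, 0.61 and 0.34, limma adjusted p = 0.00206, 0.00612 and 0.00605). The difference between the genotypes' responses passed at BMPR2, ZNF689 and OSCP1 but not at GALR2 with SRP68 or IER5 (limma adjusted p = 0.129 for both). OSCP1 was covered over 685, 722 and 644 bp in knockout cells with dexamethasone, against 2136, 2065 and 2261 bp with DMSO, and over 626 to 835 bp in the 6 scramble libraries (log2 −1.13 in knockout cells, limma adjusted p = 0.000143). The BMPR2, ZNF689, GALR2, IER5 and OSCP1 calls held without any 1 library.

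**Figure D4:**
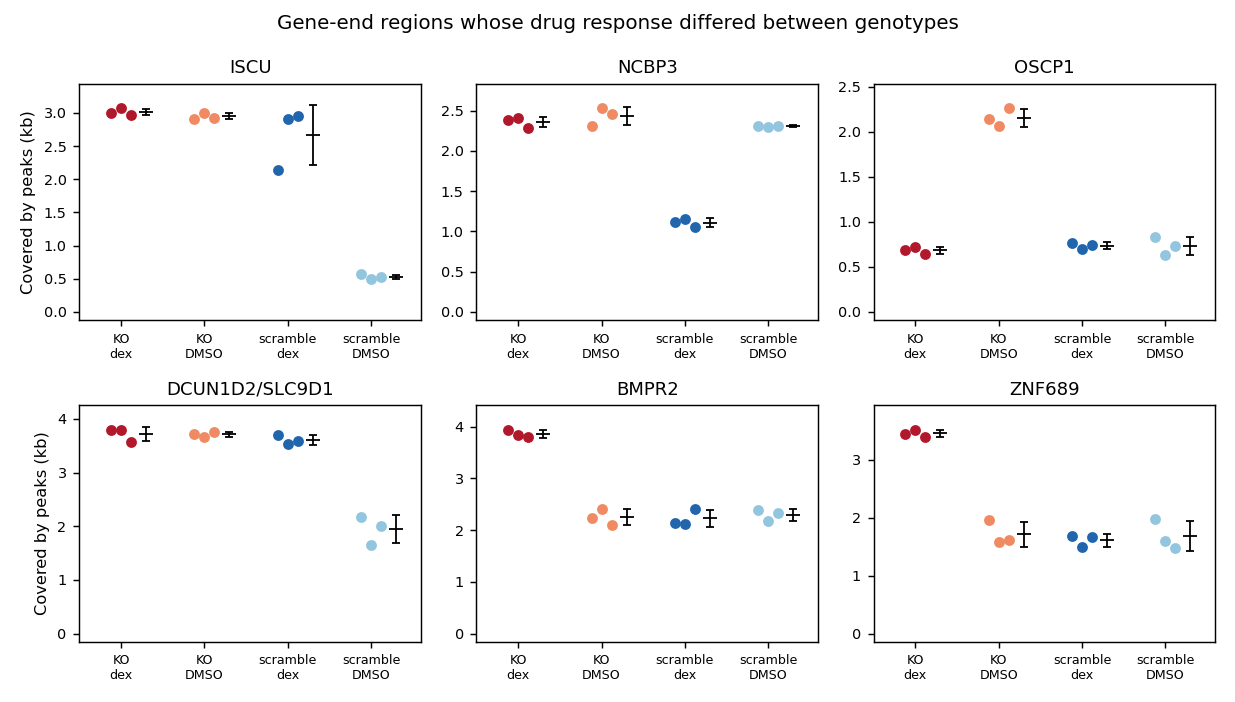
Base pairs of 6 gene-end regions covered by peaks (y axes, kb) in each library, with knockout dexamethasone, knockout DMSO, scramble dexamethasone and scramble DMSO libraries from left to right; the bar beside the points is the mean ± SD of 3 libraries. In each panel 1 of the 4 groups stands apart from the other 3.

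The difference between the drug responses of the genotypes was called at 10 gene-end regions, 4 with a larger log2 difference in knockout cells and 6 with a smaller one, and 0.0894% of all consensus regions passed, 0.0413% with a larger and 0.0481% with a smaller difference. ISCU (log2 −1.61), OSCP1 (−1.20), DCUN1D2 with SLC9D1 (−0.76) and NCBP3 (0.76) held under all 20 alternatives tried (limma adjusted p = 0.00427, 0.00182, 0.00736 and 0.00448). CXCR4 did not pass, with a difference of log2 −0.06 ± 0.0547 (SE, adjusted p = 0.999). An unadjusted limma p under 0.05 was found at 440 of the 11706 gene-end regions, beside 2199 of all 43630 consensus regions.

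Genotype was associated with many more changes than the drug. Under dexamethasone 574 gene-end regions passed, where 11.5% of all consensus regions did. Higher in knockout cells were 312 and lower 262, beside 5.6% and 5.92% of all. Under DMSO 519 passed, where 10.6% of all did, with 296 higher and 223 lower, beside 4.85% and 5.72% of all. These calls were 4.90% and 4.43% of gene-end regions, under the backgrounds. Averaged over treatments 918 (7.84%) passed, against 17.6% of consensus regions inside genes, 22.4% of those outside genes and 16.5% of all. Higher were 503 and lower 415, beside 8.27% and 8.19% of all. Regions near starts only and ends only were called at 7.84% and 8.99%. The calls under dexamethasone and under DMSO share the fit and its estimate of spread but compare different libraries. Called in both were 339 regions, 59.1% of the dexamethasone calls and 65.3% of the DMSO calls, 338 of them with the same sign. Regions with peaks in a single genotype, described below, entered the consensus through that pattern. Their agreement in sign was therefore fixed in advance, and they were not removed from this count. The overlap of calls among all consensus regions is not given here.

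The share called depended on recurrence. Of the 9743 regions with a peak in every library 5.00% were called in the averaged knockout contrast, against 39.7% of the 448 with a peak in exactly 6. Regions with a peak in every library nonetheless made up 487 of the 918 calls (53.1%), and there the change was in the extent of peaks. Complete presence or absence by genotype was rarer at gene ends than in the other classes. Peaks in all 6 knockout and no scramble library were found at 68 regions (0.581%), against 2.74% of consensus regions inside genes and 3.36% outside genes. Peaks in all 6 scramble and no knockout library were found at 94 (0.803%), against 4.07% inside and 5.52% outside genes. These regions, like any with a peak in exactly 6 libraries, could enter the consensus only through the libraries where they had peaks, so their calls for genotype are no independent test. Among the 918 averaged calls were 67 of the 68 and 94 of the 94. The shares of averaged calls in the 3 classes include such regions, so their comparison is not independent of the rule either.

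The regions of largest log2 difference were absent, or nearly so, in one genotype. EDIL3 encodes a secreted integrin ligand (chr5:84382059-84385523). Its start region is listed at 0 in all 6 knockout libraries, and in the 6 scramble libraries it was covered over 3408 bp at the lowest, 3449 bp at the median and 3465 bp at the highest. OXTR encodes the oxytocin receptor (chr3:8766230-8769523). It is listed at 0 in all 6 knockout libraries and was covered over 2984, 3097 and 3294 bp at the lowest, median and highest in scramble libraries. FGF5, a growth factor gene, is also listed at 0 in knockout cells and was covered over 2445 to 3099 bp in scramble cells. The same pattern held at FAT1 and SOX4, which encode an atypical cadherin and a developmental transcription factor, with 2605 to 3794 bp and 2442 to 3480 bp in scramble cells. RYR2, MAST4, UNC5C and EYA4 were also at 0 in all 6 knockout libraries, and KIF26B had 369 bp in 1 of them. Since one group is at 0 and the regions entered the consensus mainly or wholly through the other, neither a fold nor a p is given for them.

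Regions with peaks in knockout cells alone included SOBP, CDHR1, GPR15LG, CAPNS2 and SH2D1A. SOBP (chr6:107488856-107491499) was covered over 2224, 2462 and 2637 bp at the lowest, median and highest of 6 knockout libraries and is listed at 0 in all 6 scramble libraries. CDHR1, a photoreceptor cadherin gene (chr10:84194517-84197249), was covered over 2186, 2475 and 2661 bp in knockout libraries and is listed at 0 in scramble libraries. SH2D1A, which encodes the lymphocyte signalling adaptor SAP, was covered over 1329 to 2342 bp in knockout libraries and is listed at 0 in scramble libraries. ARHGAP32 and PCARE, with 1691 to 3769 bp and 1109 to 4138 bp in knockout libraries, were likewise at 0 in scramble libraries. PCARE, ARHGAP32 and CAPNS2 were not called when only peaks with −log10 q of at least 2 were counted.

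**Figure D5:**
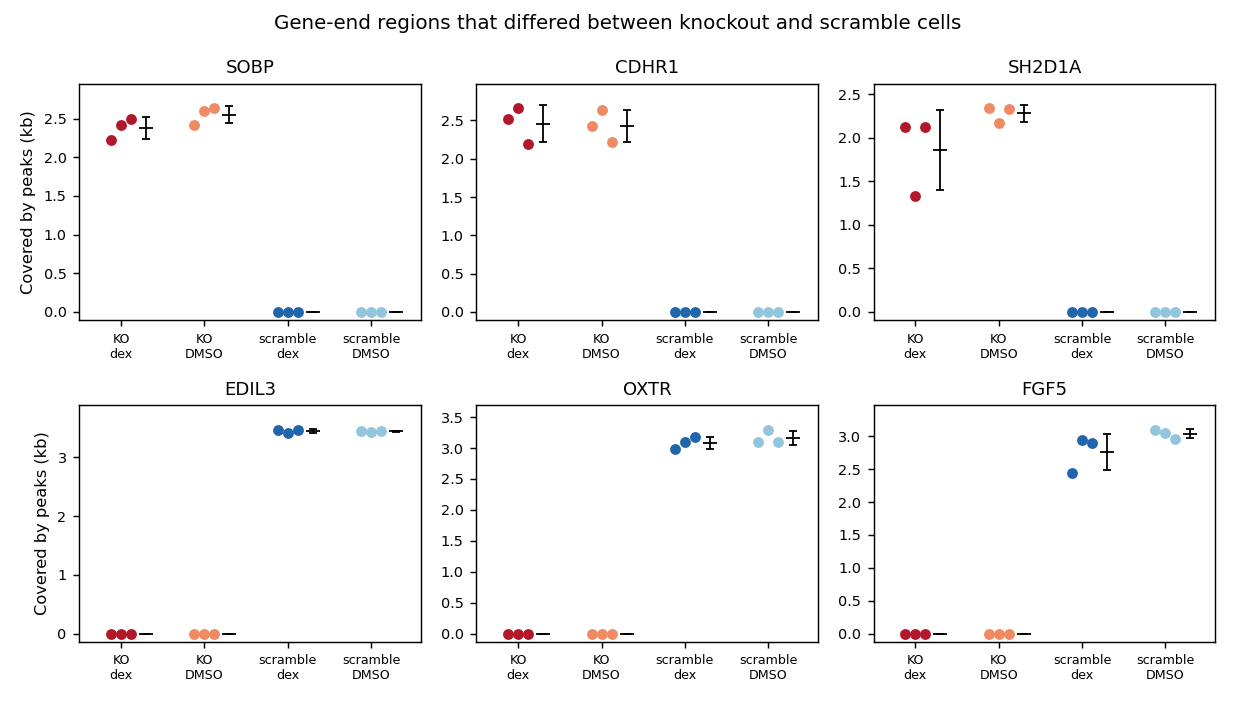
Base pairs of 6 gene-end regions covered by peaks (y axes, kb) in each library, with knockout dexamethasone, knockout DMSO, scramble dexamethasone and scramble DMSO libraries from left to right; the bar beside the points is the mean ± SD of 3 libraries. SOBP, CDHR1 and SH2D1A are at 0 in all scramble libraries, and EDIL3, OXTR and FGF5 are at 0 in all knockout libraries.

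Members of the gene lists were read against the averaged knockout contrast, in which 16.5% of all consensus regions and 7.84% of gene-end regions passed. BCL2, the anti-apoptotic target of venetoclax, had a start region with 1 peak in every library (chr18:63317767-63321111). It was covered over 3088, 3134 and 3254 bp at the lowest, median and highest in knockout libraries, against 1318, 1465 and 1541 bp in scramble libraries. Every knockout library lay above every scramble library (log2 0.88 ± 0.0342, SE, limma adjusted p = 9.89e-08). Of the 21 regions of the BCL2 family, 2 rose and 1 fell (14.3% called), close to the 16.5% of all consensus regions. BBC3, which encodes the pro-apoptotic PUMA, was covered over 4983 to 6835 bp in knockout and 4407 to 4629 bp in scramble libraries (log2 0.44). The region shared by BCL2L11, which encodes pro-apoptotic BIM, and ACOXL was covered over 3059 to 3279 bp in knockout and 3662 to 4182 bp in scramble libraries (log2 −0.30). These calls at BCL2, BBC3 and BCL2L11 with ACOXL held under every alternative tried. A further region of BCL2L11 did not pass on average (log2 −0.63, limma adjusted p = 0.138). Its knockout difference was log2 −1.27 under DMSO and 0.01 under dexamethasone, and neither passed (limma adjusted p = 0.0522 and 0.994).

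Of the 33 regions of NF-κB and inflammatory genes, 3 rose and 2 fell (15.2% called), also close to the 16.5% of all. The chemokine genes CCL3 and CCL4 are neighbours, so their calls are not independent. CCL3 was covered over 657 to 1889 bp and CCL4 over 311 to 807 bp in knockout libraries, and both are listed at 0 in all 6 scramble libraries. IL1B, which encodes interleukin 1β, was covered over 345 to 2332 bp in knockout libraries and is listed at 0 in scramble libraries, a call that ended when only peaks with −log10 q of at least 2 were counted. All 3 entered the consensus through the knockout libraries alone, and MT1E, described below, through the scramble libraries alone. REL, an NF-κB subunit, was covered over 1008 to 1379 bp in knockout and 1390 to 1622 bp in scramble libraries (log2 −0.25, limma adjusted p = 0.00396). CD83 also fell (log2 −0.36, limma adjusted p = 0.0169).

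Of the 28 regions of plasma cell and myeloma genes, 3 rose (10.7%) and none fell, beside 8.27% higher and 8.19% lower among all consensus regions. CCND1, the cyclin D1 gene that is translocated in some myelomas, was covered over 4291, 4103 and 2621 bp in knockout cells with dexamethasone and 4108, 4196 and 4148 bp with DMSO. In scramble cells it was covered over 2733, 2632 and 2608 bp with dexamethasone and 2781, 2646 and 2667 bp with DMSO. A single knockout drug library was as short as the scramble libraries, and the averaged difference was log2 0.44 (limma adjusted p = 0.00599). The region shared by ITGB7, an integrin subunit gene, and RARG was covered over 5528 to 6072 bp in knockout and 3760 to 3977 bp in scramble libraries (log2 0.50, limma adjusted p = 4.8e-07). SEC11C, a signal peptidase subunit gene, passed with log2 0.31 (limma adjusted p = 0.0116).

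The housekeeping, proteasome and secretory lists stayed close to the centre, with averaged knockout medians of log2 −0.02, −0.02 and −0.01 against 0.00 over all regions. They had 1 call in 41 regions (2.44%), 1 in 36 (2.78%) and 1 in 29 (3.45%), each under the 7.84% of gene-end regions and the 16.5% of all. Of the 45 glucocorticoid-induced regions 2 rose and 3 fell with knockout (11.1% called), between the 7.84% of gene-end regions and the 16.5% of all, among them MT1E, a metallothionein gene with no peak in any of the 6 knockout libraries, which was covered over 401 to 829 bp in scramble libraries. GLUL, the glutamine synthetase gene, also fell (log2 −0.51, limma adjusted p = 0.016). None of the 6 regions of the C/EBP family passed in the averaged contrast by limma, and CEBPD (log2 0.36) and CEBPE (log2 −0.79) had unadjusted p-values under 0.05, at 0.0123 and 0.0331.

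By chromosome, calls for the genotype are given beside the 4.30% higher and 3.55% lower among all gene-end regions, with no test of their spread. On chromosome 20, 8 of 335 gene-end regions rose (2.39%) and 22 fell (6.57%), with a median log2 difference of −0.03 over all 335. Falls also outnumbered rises on chromosome 7 (17 higher and 32 lower of 568) and chromosome 3 (22 and 36 of 651). Rises were more frequent on chromosome 2 (51 and 25 of 756) and chromosome 15 (23 and 7 of 392). Chromosome 18 had the highest share of rises, 11 of 152, and 8 falls. Neighbouring regions are not independent, and copy number was not measured in these data, so differences in copy number between the knockout and scramble cells were not tested.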

How the data were processed

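H3K27ac CUT&RUN libraries were aligned with Bowtie2 2.4.2 to hg38 and peaks called with MACS3 3.0, per the submitters' processing notes; no control library is named in the sources used here. The authors deposited 1 list of broad peaks per library, 12 in all. Besides −log10 p and −log10 q, the deposited lists give a score, which was 10 times −log10 q in 100% of each library's peaks. Peak positions in the deposited lists count from 0 and fall under other units. The fold enrichment in the deposited lists is a ratio per peak and was used only to rank peaks within a library. Each list went down to a −log10 q of 0.523 to 0.535. Outside chromosomes 1 to 22 and X lay 213 to 296 peaks per library, left out here.

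Peaks were merged over the 12 libraries and overlaps counted from 1 bp. RefSeq gene spans (GRCh38.p14) gave the gene ends, and strand came from RefSeq's promoter table, which also gave the sequences. Covered length was analysed as log2(bp + 500), quantile-normalised, in 1 fit of 12 libraries with limma 3.58.1 (trend and robust, 8 residual degrees of freedom, R 4.3.3), adjusted by Benjamini-Hochberg over 43630 regions with a threshold of 0.05. Per-library measures were compared by exact permutation within the other factor (400 arrangements, smallest p = 0.005) and classes by exact sign flips (4096). Other software was Matplotlib 3.10.9, SciPy 1.17.1, NumPy 2.4.6 and pandas 2.3.3 under Python 3.11.15.

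Tested on simulated data of 43630 regions for dexamethasone in scramble cells, the fit found 56% of regions altered by log2 1 and 69% of regions altered by log2 2. It made 7 false calls there and 0 in an unchanged contrast. The altered regions were drawn only from those of longer mean covered length, and the noise was normal and independent. Simulated lengths under 0 were set to 0, which can cut falls short. The rates therefore hold for these settings and not for the real data.

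The members, the gene lists and the tests were chosen with earlier results of these data known. Named regions were up to 10 higher and 10 lower per contrast by log2 size among non-overlapping calls, the 5 widest, the 5 of highest rank, CEBPB, and up to 3 members per list. Not every named region is printed, 1 of the 10 regions with different drug responses is not reported here, and single-region alternatives were run for called regions and for the glucocorticoid and C/EBP lists only, a departure from that rule. KIF3C is named beside a count of 2. Alternatives covered the normalisation, offset, consensus, distance, strong peaks, limma options, the replicate number as a block, and leaving out each library.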

Additional observations from a re-analysis of the deposited data

Results flagged for a closer look

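The drug response differed between knockout and scramble cells, by limma's test of the difference, at 10 gene-end regions. Each value is the log2 response in knockout cells minus that in scramble cells. It was −1.61 at ISCU, −1.20 at OSCP1, −0.88 at TTLL8 with MLC1, −0.76 at DCUN1D2 with SLC9D1 and −0.37 at CYTH1. It was 0.70 at BMPR2, 0.76 at NCBP3, 0.88 at ZNF689 and 2.93 at BRAT1.

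BRAT1 encodes a protein linked to DNA damage signalling, and its region was covered over 707, 903 and 1441 bp in knockout cells with dexamethasone, against 283, 268 and 0 bp with DMSO. In scramble cells it was covered over 313, 351 and 526 bp with dexamethasone, against 2514, 1530 and 2891 bp with DMSO. Its adjusted p was 0.0435, and with each library left out in turn the call was lost except without scramble dexamethasone library 1 or scramble DMSO library 2. The call at CYTH1 was lost except without scramble DMSO library 2. That at BMPR2 was lost except without scramble dexamethasone library 3 or knockout DMSO library 2 or 3, and that at ZNF689 except without scramble DMSO library 1 or 3 or knockout DMSO library 1 or 3. The calls at ISCU, OSCP1, TTLL8 with MLC1, DCUN1D2 with SLC9D1 and NCBP3 held without any 1 library.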

How the results depend on the processing

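Over the comparisons, 404 of 428 alternative values kept their direction and side of the threshold (counts within 1.5 times). Counting only peaks with −log10 q of at least 2 gave 43 drug calls in scramble cells, 27 in knockout cells and 27 interaction calls. A consensus of 3 libraries gave 40 and 30 drug calls. A consensus of 9, which tests fewer variable regions, gave 143 knockout calls under dexamethasone, 133 under DMSO and 443 on average. Over all consensus regions, same-numbered libraries did not deviate together (correlations −0.0266 to 0.0322 over 18 pairs). Pairs of different number ranged from −0.0328 to 0.0455 (36 pairs). A pairing that affects only part of the regions was not tested. With the replicate block there were 8 drug calls in scramble cells and 5 interaction calls. The block also gave 11 drug calls in knockout cells and 841 averaged knockout calls. Without normalisation the splits of higher and lower calls were 12 and 6 (drug, scramble), 5 and 5 (interaction) and 657 and 354 (averaged knockout).

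Leaving out 1 library gave 17 to 40 drug calls in scramble cells, 13 to 35 in knockout cells, 9 to 17 interaction calls, 25 to 41 averaged drug calls, 449 to 578 knockout calls under dexamethasone, 434 to 505 under DMSO and 805 to 940 on average. Interaction calls were 17 without scramble DMSO library 1 and 16 without knockout DMSO library 1. The knockout difference in peak width ranged from 45.4 to 68.7 bp, the drug difference in width from −10.25 to 13 bp (3.08 bp with strong peaks), and the knockout difference in share of covered length from −0.0707 to 1.23 percentage points (−0.0199 with strong peaks). Counting a region as present when 50% was covered turned the knockout difference in the share with a peak to 1.15 points.

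Strong peaks alone turned CNTF (log2 −0.40, drug in scramble cells), GJB2 (0.64 in scramble cells and 0.26 on average) and the CDKN1C interaction (0.34). CEBPZ, drug in scramble cells, was −0.0033 without normalisation and ranged from −0.012 to 0.067 without 1 library, and CEBPG in knockout cells from −0.010 to 0.137. The cause of these turns was not tested. Read depth is unknown, and an absent peak may lie just under the caller's threshold.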
